A study of Homo sapiens with 6 samples.

Results

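Small nucleolar RNA host genes were followed in A375SM cells, a human melanoma line, with and without a short hairpin RNA against PRAME. The set was defined by name, as every gene whose official symbol is SNHG plus a number, together with GAS5, ZFAS1, EPB41L4A-AS1, DANCR and MEG8. It held 34 of the 40895 genes in the count files. Of these, 26 had enough reads to be tested and 8 did not. There were 3 libraries of cells with a control hairpin (shCtrl) and 3 of cells with a hairpin against PRAME mRNA (shPRAME), a cancer-testis antigen that serves as a substrate receptor of a CUL2 ubiquitin ligase. All 6 libraries carry the genotype label WT and the batch label 1, and were made from polyA RNA and read as pairs of 150 bases. The sources used here give neither the number of hairpins nor whether libraries of a group came from separate transductions. The spread behind each p-value is that between the libraries and may be technical.

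Most human small nucleolar RNAs (snoRNAs) are cut out of the introns of longer host transcripts. Box C/D snoRNAs guide 2'-O-methylation of ribosomal RNA, box H/ACA snoRNAs guide pseudouridylation, and the related Cajal body RNAs guide the same modifications on spliceosomal RNAs. The host genes studied here leave a spliced RNA with little or no coding potential. Several such spliced RNAs, GAS5 and SNHG1 among them, are known to be degraded by nonsense-mediated decay when they are translated, and several host genes begin with a pyrimidine tract of the kind found at the start of ribosomal protein mRNAs (a 5' TOP). Read counts of a host gene report the spliced and unspliced host RNA, not the snoRNAs.

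The starts of the host genes are shown because their sequence did not enter the definition of the set. RefSeq promoter entries (GRCh38.p14) were matched for 29 of the 34 genes and were not matched for SNHG15, SNHG6, SNHG9, SNHG25 and MEG8. An unbroken run of at least 5 pyrimidines covered the annotated start in 11 of these 29 genes (37.9%), against 2675 of 27305 genes (9.80%) in the whole promoter table. The limit of 5 was chosen after the sequences and the changes in level had been seen. SNHG4, SNHG7, SNHG18 and SNHG26 also carry such a run and are not printed. Each line below gives 30 bases before the start and 30 bases from it, 5' to 3' on the strand of the gene, and capitals mark the pyrimidine run over the start. The starts used for SNHG12 and ZFAS1 lie inside the gene as RefSeq bounds it, 1110 and 464 bases from its outer end, and the others shown are the outer ends themselves.
SNHG12 (chr1:28581844-28581903, minus strand): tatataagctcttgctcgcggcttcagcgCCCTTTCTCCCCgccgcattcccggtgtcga
SNHG32 (chr6:31834886-31834945, plus strand): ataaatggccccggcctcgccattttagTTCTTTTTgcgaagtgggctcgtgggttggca
SNHG19 (chr16:2155329-2155388, minus strand): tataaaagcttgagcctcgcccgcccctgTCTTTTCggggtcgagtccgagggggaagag
ZFAS1 (chr20:49278612-49278671, plus strand): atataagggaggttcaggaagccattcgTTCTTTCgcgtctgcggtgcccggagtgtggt
SNHG5 (chr6:85678704-85678763, minus strand): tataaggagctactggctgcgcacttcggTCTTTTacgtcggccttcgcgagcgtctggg
SNHG8 (chr4:118278732-118278791, plus strand): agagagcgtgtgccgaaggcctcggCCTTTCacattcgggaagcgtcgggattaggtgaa
SNHG1 (chr11:62855856-62855915, minus strand): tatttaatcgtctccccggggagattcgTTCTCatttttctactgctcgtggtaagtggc

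For comparison, the annotated starts of SNHG3 and SNHG16, whose levels changed in opposite directions, lie on a G not covered by such a run. That of SNHG17 lies on an A. A run of at least 5 pyrimidines lies within a few bases of each of these starts, so the contrast depends on the exact annotated base.
SNHG3 (chr1:28505913-28505972, plus strand): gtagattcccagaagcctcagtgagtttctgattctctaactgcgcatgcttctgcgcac
SNHG16 (chr17:76557734-76557793, plus strand): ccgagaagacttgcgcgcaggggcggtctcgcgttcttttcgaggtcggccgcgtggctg
SNHG17 (chr20:38435299-38435358, minus strand): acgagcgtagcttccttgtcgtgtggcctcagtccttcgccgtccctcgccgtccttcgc

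The letters CTTTC stood on either strand of the 300-base window (250 bases before the start to 50 from it) in 13 of the 29 genes (44.8%) and in 54.9% of all promoters. They can lie within a pyrimidine run. The E-box CACGTG, a palindrome and therefore the same on both strands, stood in 2 of the 29 (6.90%, SNHG7 and SNHG30) and in 7.43% of all promoters. These matches describe the letters in the window and no binding was measured.

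Libraries held 30842788 to 34107332 counts, and the host genes took 0.112% to 0.120% of them. Counts of PRAME were 5623, 5356 and 5083 in shCtrl and 1803, 1993 and 1857 in shPRAME. Scaled to CPM, PRAME averaged 165.0 ± 1.26 in shCtrl and 56.4 ± 2.30 in shPRAME (± SD over 3 libraries, as for every level with an error below). CPM, the unit of every level below, are counts scaled to the library size after adjustment by the trimmed mean of M-values (TMM). The log2 fold change of shPRAME over shCtrl was -1.55 (SE 0.0314, edgeR adjusted p = 4.85e-17). Among melanoma markers, SOX10 stood at 265.7 and 275.4 CPM on average in shCtrl and shPRAME, while TYR had no count in any library. The list of melanoma markers holds 10 genes and includes PRAME itself. PMEL, MLANA, TYR, TYRP1 and DCT had too few reads in these libraries to be tested. Of 5 tested melanoma markers 3 fell, namely PRAME, S100B (54.0 ± 0.629 to 28.2 ± 1.26 CPM) and MITF (44.6 to 37.7 CPM on average). S100A1 rose (65.9 ± 1.63 to 91.7 ± 0.795 CPM). The summed level of the list, PRAME and untested members included, ranged from 586.0 to 603.5 CPM in shCtrl and from 488.1 to 491.3 in shPRAME. The fall of PRAME from 165.0 to 56.4 CPM is part of that difference. Leukocyte markers summed to 42.8 to 45.1 CPM in shCtrl and 72.2 to 74.1 in shPRAME, with 3 of 3 tested higher, most of the sum in CD68 (43.9 ± 1.16 and 70.7 ± 0.767 CPM) and CD3E at no count. Of 7 tested fibroblast markers 5 rose and 2 fell. COL1A2, a collagen gene, was at 0 in every shCtrl library and averaged 21.6 ± 1.31 CPM after PRAME knockdown, and LUM had 0.0102 ± 0.0177 and 9.89 ± 0.178 CPM, while PDGFRB (64.3 ± 1.86 against 17.4 ± 1.32 CPM) and FAP (46.1 ± 1.202 against 27.0 ± 0.771 CPM) were lower in shPRAME. The list summed to 112.5 to 116.3 CPM in shCtrl and 88.1 to 95.3 in shPRAME. Keratinocyte markers summed to 27.7 to 29.6 and 23.2 to 24.4 CPM with the 1 tested, KRT10, lower and KRT5 and KRT1 at no count, and endothelial markers to under 1 CPM in each library with CDH5 at no count. The part of these marker shifts in the results below was not tested.

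Host genes moved in both directions after the hairpin against PRAME. SNHG14 rose 3.00-fold, a group of 10 others rose less than 1.5-fold, SNHG19, SNHG3 and SNHG21 fell by more than 1.5-fold, and 6 others fell less than 1.5-fold. Of the 26 tested, 20 passed at an edgeR adjusted p under 0.05 (76.9%), where 74.4% of all 15954 genes tested and 58.6% of 2402 long noncoding RNA genes passed. In shPRAME 11 were higher (42.3%; 37.7% of all genes and 29.2% of long noncoding RNA genes) and 9 lower (34.6%; 36.8% and 29.4%). These shares lie near those over all genes. In bulk RNA, fewer cells with a transcript and less of it per cell cannot be told apart.

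The typical change was about as large as that over all genes, and few host genes reached 2-fold. Only SNHG14 of the 26 changed at least 2-fold (3.85%, the same share for higher genes alone), against 18.6% of all genes (10.1% at least 2-fold higher) and 29.9% of long noncoding RNA genes, while SNHG19 (1.93-fold lower) and SNHG3 (1.85-fold lower) came next. The median log2 fold change was 0.05, beside 0.01 over all genes and -0.01 over long noncoding RNA genes, and the median size of a change without its sign was 0.36, 0.38 and 0.59. The groups did not overlap at 18 of the 26 (69.2%), at 76.5% of all genes and at 60.9% of long noncoding RNA genes. Against a minimum fold of 1.2, 7 host genes were higher and 6 lower, and 48.4% of all genes passed that test.

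The summed level of the 34 host genes was 1136, 1154 and 1145 CPM in shCtrl and 1180, 1179 and 1180 CPM in shPRAME. Every shPRAME library was above every shCtrl library. Without SNHG14 the order was the other way round, with 1109 ± 10.3 CPM in shCtrl and 1073 ± 2.03 in shPRAME. SNHG14 was the host gene that rose most in these same libraries, so leaving it out lowers the shPRAME sum more by construction. The reversed order only describes the remaining genes. The differences with and without SNHG14 each had p = 0.1 in a 2-sided exact permutation test. That is the smallest value that 3 against 3 libraries allow, so the test could not reach the limit used for single genes. No conclusion is drawn from it. SNHG29 made up 26.7% of the sum in shCtrl and 24.1% in shPRAME, SNHG16 12.6% and 16.1%, and SNHG14 3.12% and 9.11%.

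**Figure D1:**
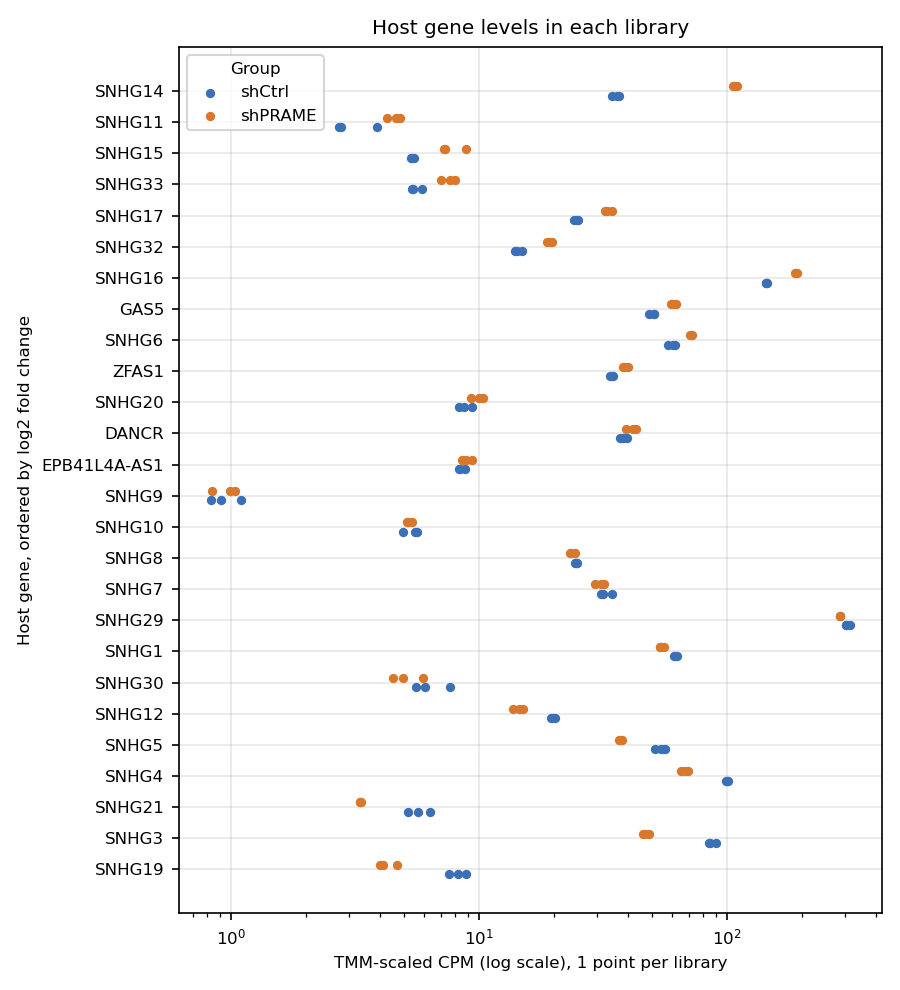
Levels of the 26 tested host genes in each library, with 1 point per library, TMM-scaled CPM on a log axis and genes ordered by log2 fold change. The 3 shPRAME points of SNHG14, at the top, lie between 105.7 and 110.0 CPM and those of shCtrl between 34.5 and 36.8, while at SNHG19, at the bottom, the shPRAME points lie below the shCtrl points.

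SNHG14 (NCBI gene 104472715, chromosome 15, 24823608 to 25419462, GRCh38.p14) is the long host transcript of the imprinted Prader-Willi and Angelman region, normally expressed from the paternal chromosome, and RefSeq places 83 box C/D snoRNA genes within it. It had 36.8, 34.5 and 35.998 CPM in shCtrl and 110.0, 106.6 and 105.7 CPM in shPRAME. The log2 fold change was 1.59 (SE 0.0341, edgeR adjusted p = 9.80e-17), and the lowest shPRAME library was well above the highest shCtrl library. Of 7 tested genes that lie within its span on the same strand or with no strand on record, 6 rose and none fell. IPW, a noncoding RNA of the same imprinted region, rose from 10.3 ± 0.277 to 30.4 ± 1.56 CPM, and PWAR6 from 3.65 ± 0.246 to 12.5 ± 0.756 CPM. PWARSN (log2 fold change 1.04), LOC128966705 (1.24) and PWAR5 (0.70) also rose. Because these genes lie inside SNHG14, their rises are not separate from its own, and how shared reads were divided was not tested. With the reads of 8 overlapping same-strand genes added, SNHG14 averaged 104.3 CPM in shCtrl and 239.2 in shPRAME. The log2 fold change was then 1.198 (edgeR adjusted p = 1.25e-16), smaller than for SNHG14 alone.

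SNRPN, which encodes a spliceosomal Sm protein, starts 29 bases from the start of SNHG14. SNURF, an upstream reading frame on transcripts of SNRPN, has its RefSeq start 131379 bases from that of SNHG14 and ends where SNRPN ends. SNURF had 1.42, 17.8 and 23.1 CPM in shCtrl and 31.1, 28.98 and 37.7 CPM in shPRAME (log2 fold change 1.23, edgeR adjusted p = 0.00888). SNRPN had 41.2, 22.9 and 19.4 CPM in shCtrl and 37.5, 37.2 and 30.2 CPM in shPRAME (adjusted p = 0.110, not passed). Within shCtrl, the library lowest in SNURF was highest in SNRPN, and the counts of the 2 genes could not be separated with confidence. Their sum was 42.6, 40.7 and 42.5 CPM in shCtrl and 68.7, 66.1 and 67.8 CPM in shPRAME, with no overlap. UBE3A, a ubiquitin ligase gene on the opposite strand at the far end, had 192.1 ± 4.33 CPM in shCtrl and 185.3 ± 0.749 in shPRAME (log2 fold change -0.05, adjusted p = 0.0740, not passed). The median log2 fold change of the 20 nearest tested protein-coding genes around SNHG14 was -0.03, and that of the 10 nearest was 0.77.

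**Figure D2:**
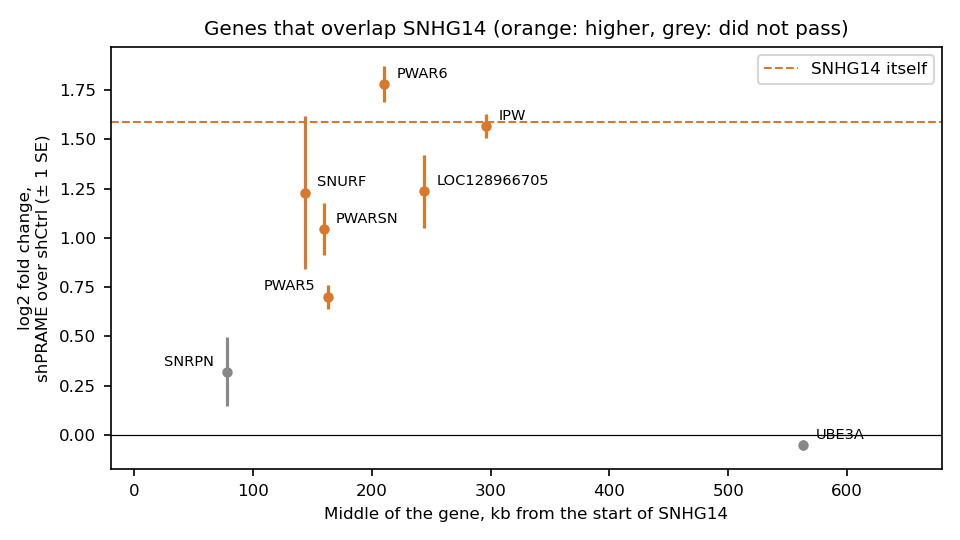
Log2 fold changes (shPRAME over shCtrl, bars ± 1 SE) of the 8 tested genes that overlap SNHG14, placed by the distance of their midpoint from its start in kb, with the dashed line at the value of SNHG14. The 6 orange genes rose, by 0.70 to 1.78, while SNRPN and UBE3A, in grey, did not pass.

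Among hosts of box C/D snoRNAs, 5 of 10 tested rose and 5 fell, with a median log2 fold change of 0.04. The counts for this and the other classes of snoRNA are to be read against all genes, of which 37.7% were higher and 36.8% lower. SNHG16 (chromosome 17, 76557764 to 76565348), host of SNORD1A, SNORD1B and SNORD1C, had 143.8, 143.8 and 144.3 CPM in shCtrl and 191.9, 189.1 and 187.8 CPM in shPRAME (log2 fold change 0.40, SE 0.0243, edgeR adjusted p = 1.23e-10). SNHG32 (chromosome 6, 31834916 to 31839761), host of SNORD48 and SNORD52 and the owner of a run of 8 pyrimidines at its start, had 14.2, 14.0 and 14.9 CPM in shCtrl and 18.8, 19.3 and 19.7 CPM in shPRAME (0.43, SE 0.0571, adjusted p = 3.16e-06). In both, every shPRAME library was above every shCtrl library. SNHG6, host of SNORD87, rose from 57.9, 61.6 and 60.4 CPM in shCtrl to 70.7, 71.8 and 72.4 CPM in shPRAME (0.26, adjusted p = 1.84e-06). ZFAS1 (chromosome 20, 49278178 to 49289260), which starts back to back with ZNFX1 and hosts 3 SNORD12 snoRNAs, rose from 34.7, 34.3 and 33.8 to 39.0, 38.1 and 39.7 CPM (0.18, adjusted p = 3.89e-04). These 2 rises, without overlap between the groups, were under 1.2-fold.

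SNHG19 (chromosome 16, 2154782 to 2155358), a short gene that hosts SNORD60, was the host gene that fell furthest among the 26. It had 8.85, 8.20 and 7.56 CPM in shCtrl and 4.67, 3.97 and 4.11 CPM in shPRAME (log2 fold change -0.95, SE 0.102, edgeR adjusted p = 2.25e-07). TRAF7, which starts 424 bases away on the other strand, rose from 100.3 ± 4.74 to 110.0 ± 1.82 CPM (0.13, adjusted p = 0.00174). SNHG5 (chromosome 6, 85677007 to 85678733), host of SNORD50A and SNORD50B, fell from 51.2, 56.2 and 54.0 CPM in shCtrl to 36.7, 37.8 and 37.3 CPM in shPRAME (-0.53, SE 0.0400, adjusted p = 2.15e-09). The groups did not overlap in either gene, and both carry the pyrimidine run printed above. SNHG1 (chromosome 11, 62851978 to 62855885), the U22 host gene with 8 SNORD genes in its introns, fell from 61.3, 62.0 and 62.8 to 53.9, 53.8 and 55.9 CPM (-0.18, adjusted p = 6.76e-05). Its divergent neighbour SLC3A2, the heavy chain of amino acid transporters, stood at 128.1 ± 4.16 and 128.5 ± 1.67 CPM (adjusted p = 0.911, not passed).

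SNHG29 (chromosome 17, 16438987 to 16470648), which hosts SNORD49A, SNORD49B and SNORD65, was the host gene with the most reads. Its level fell from 302.0, 313.4 and 302.4 CPM in shCtrl to 284.3, 285.2 and 284.6 CPM in shPRAME (log2 fold change -0.10, SE 0.0234, edgeR adjusted p = 6.95e-04), a change of 1.07-fold with no overlap. SNHG30, host of SNORD7, had 6.07, 5.60 and 7.62 CPM in shCtrl and 4.48, 4.96 and 5.97 CPM in shPRAME (-0.32, SE 0.128, adjusted p = 0.0337). The groups of SNHG30 overlapped, and the call was lost without shCtrl replicate 3 (adjusted p = 0.205), without shPRAME replicate 1 (0.171), without shPRAME replicate 2 (0.104) and when libraries were scaled to their totals alone (0.0714).

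Among hosts of box H/ACA snoRNAs, 5 of 11 tested rose, 2 fell and 4 did not pass, with a median log2 fold change of 0.07. The 2 that fell were SNHG3 and SNHG4. SNHG3 (chromosome 1, 28505943 to 28510892) hosts SNORA73A and SNORA73B, the U17 snoRNAs that take part in cleavage of the ribosomal RNA precursor. It had 84.7, 85.2 and 90.5 CPM in shCtrl and 46.0, 48.4 and 46.7 CPM in shPRAME (log2 fold change -0.88, SE 0.0355, edgeR adjusted p = 4.15e-13), so that the groups were far apart. For SNORA73A itself, 21, 22 and 17 reads were counted in shCtrl and 10, 10 and 14 in shPRAME, in libraries of polyA RNA that are not made to capture snoRNAs. SNORA74A, whose host SNHG4 also fell, went the other way, with 2, 4 and 1 reads in shCtrl and 6, 5 and 7 in shPRAME. Whether those few reads came from the snoRNAs or from the host introns was not tested.

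RCC1, the nucleotide exchange factor of Ran, begins 100 bases downstream of SNHG3 on the same strand and covers the rest of it. RCC1 fell from 150.0 ± 0.411 to 131.2 ± 1.66 CPM (log2 fold change -0.19, edgeR adjusted p = 2.38e-06). With the reads of both genes added, the level was 236.8 CPM in shCtrl and 178.2 in shPRAME (-0.41, adjusted p = 7.65e-11), so the sum of both genes fell as well. SNHG12, which lies 67.6 kb from SNHG3 and hosts SNORA16A, SNORA44, SNORA61 and SNORD99, also fell, from 19.9, 20.2 and 19.5 CPM to 15.05, 14.6 and 13.7 CPM (-0.46, SE 0.0579, adjusted p = 1.47e-06). TRNAU1AP, which meets SNHG12 end to end on the other strand, fell from 14.1 ± 0.404 to 11.2 ± 0.371 CPM (-0.33, adjusted p = 2.26e-04). The 20 nearest protein-coding genes had medians of -0.25 around SNHG3 and -0.19 around SNHG12.

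SNHG4 (chromosome 5, 139274101 to 139284900), host of SNORA74A and SNORA74D, shares its annotated start with MATR3, which encodes a nuclear matrix and RNA-binding protein. SNHG4 fell from 101.0, 98.8 and 100.1 CPM in shCtrl to 69.3, 67.4 and 65.4 CPM in shPRAME (log2 fold change -0.57, SE 0.0306, edgeR adjusted p = 2.13e-11). MATR3 rose slightly, from 454.0 ± 16.2 to 473.0 ± 0.978 CPM (0.06, adjusted p = 0.0457). With the reads of both genes added, the level was 553.9 CPM in shCtrl and 540.4 in shPRAME and the call was lost (-0.04, adjusted p = 0.193). MATR3 makes up most of that sum, and how reads of the shared stretch were divided between the 2 genes was not tested.

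On chromosome 20 lie SNHG17, host of 4 snoRNAs of the SNORA71 family, and SNHG11, host of SNORA60 and SNORA71E, 11.3 kb apart on opposite strands. SNHG17 had 24.1, 24.7 and 25.0 CPM in shCtrl and 32.8, 32.3 and 34.3 CPM in shPRAME (log2 fold change 0.43, SE 0.0450, edgeR adjusted p = 1.69e-07). SNHG11, below 5 CPM on average, rose from 2.78 to 3.89 CPM in shCtrl to 4.26 to 4.80 CPM in shPRAME (0.54, SE 0.139, adjusted p = 0.00201). Both rose without overlap between the groups. SNHG15, host of SNORA9, had 5.30, 5.38 and 5.48 CPM in shCtrl and 7.27, 7.22 and 8.83 CPM in shPRAME (0.53, adjusted p = 1.50e-04). SNHG33, host of SNORA63D and SNORA63E, had 5.44, 5.38 and 5.90 CPM in shCtrl and 7.65, 7.02 and 7.99 CPM in shPRAME (0.44, adjusted p = 4.61e-04). Every shPRAME library of these 2 genes was above every shCtrl library.

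DANCR (chromosome 4, 52712394 to 52720697), host of SNORA26 and first described as a noncoding RNA that holds back differentiation, had 37.0, 39.5 and 38.1 CPM in shCtrl and 39.2, 43.0 and 41.8 CPM in shPRAME (log2 fold change 0.11, SE 0.0428, edgeR adjusted p = 0.0228). The groups overlapped, and the call was lost with DESeq2 (adjusted p = 0.0557), without shCtrl replicate 1 (0.0952), without shPRAME replicate 2 (0.0973) and against a fold of 1.2, and with the median of neighbouring genes taken off the direction turned (-0.61, adjusted p = 1.05e-09). The other 4 tested H/ACA hosts did not pass. SNHG8, host of SNORA24, had 24.3, 24.7 and 24.8 CPM in shCtrl and 23.2, 24.4 and 23.4 CPM in shPRAME (-0.06, adjusted p = 0.302). SNHG7, host of SNORA17A and SNORA17B, had 34.4, 31.2 and 31.6 CPM and 29.4, 30.95 and 31.9 CPM (-0.07, adjusted p = 0.178). EPB41L4A-AS1, host of SNORA13, had 8.34, 8.75 and 8.37 CPM and 8.84, 9.40 and 8.57 CPM (0.07, adjusted p = 0.404). In all 3 the groups overlapped, as they did in SNHG9, host of SNORA78, at about 1 CPM (0.02, adjusted p = 0.940).

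Some of these hosts lie beside or within genes that changed. LOC124900276, annotated as protein-coding, covers SNHG7 on its strand and fell from 12.9 ± 0.513 to 6.76 ± 0.781 CPM, and SNHG7 and LOC124900276 added together fell from 45.2 to 37.5 CPM (log2 fold change -0.27, edgeR adjusted p = 3.78e-05). EPB41L4A, which covers EPB41L4A-AS1 on the other strand, rose from 0.143 ± 0.0434 to 1.02 ± 0.0481 CPM. DIPK1B, at the end of SNHG7, rose from 1.56 ± 0.364 to 3.44 ± 0.276 CPM. MCMDC2, which covers SNHG6 on the other strand, fell from 0.599 ± 0.0996 to 0.0997 ± 0.0149 CPM, and LRRC75A, opposite SNHG29, stood at 0.369 ± 0.0450 and 0.357 ± 0.118 CPM (not passed). RPS2, a ribosomal protein gene that starts 170 bases from SNHG9, fell from 1191 ± 26.5 to 1054 ± 31.8 CPM, and ZNFX1, beside ZFAS1, stood at 98.3 ± 1.47 and 95.8 ± 1.18 CPM (not passed). Over 23 tested genes that overlap or start beside 15 tested host genes, 12 rose and 6 fell, beside 37.7% of all genes higher and 36.8% lower, and 7 of the 23 overlap SNHG14 on its strand or with no strand on record. Where both the host gene and its partner passed, in 12 pairs, they moved the same way in 9, of which SNHG14 gave 6.

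GAS5 (chromosome 1, 173863901 to 173869045), a transcript known to accumulate in growth-arrested cells, hosts 10 box C/D snoRNAs and SNORA103. Its level rose from 50.9, 50.9 and 48.3 CPM in shCtrl to 62.5, 59.3 and 60.7 CPM in shPRAME (log2 fold change 0.28, SE 0.0356, edgeR adjusted p = 1.64e-06), with no overlap. ZBTB37, which starts 963 bases inside it on the other strand, rose from 45.5 ± 1.05 to 64.9 ± 0.422 CPM (0.51, adjusted p = 2.44e-10). Without strand in the counting, reads from the stretch shared by GAS5 and ZBTB37 cannot be told apart. GAS5 and SNHG12, described above, are the 2 tested genes that hold both kinds of snoRNA, and they moved in opposite directions.

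Of 3 tested hosts of Cajal body RNAs, SNHG21 fell and the other two did not pass. SNHG21 (chromosome 15, 82750564 to 82757206), host of SCARNA15, had 5.65, 6.36 and 5.19 CPM in shCtrl and 3.33, 3.31 and 3.30 CPM in shPRAME (log2 fold change -0.79, SE 0.112, edgeR adjusted p = 6.04e-06). The groups of SNHG21 did not overlap. SNHG10, host of SCARNA13, had 5.50, 4.93 and 5.61 CPM in shCtrl and 5.35, 5.11 and 5.16 CPM in shPRAME (-0.04, adjusted p = 0.731), beside a rise of its divergent neighbour GLRX5, a mitochondrial glutaredoxin, from 24.6 ± 0.869 to 29.6 ± 0.766 CPM. SNHG20, host of SCARNA16, had 8.67, 9.36 and 8.27 CPM in shCtrl and 10.02, 10.4 and 9.33 CPM in shPRAME (0.18, adjusted p = 0.0584). SEC14L1, a lipid-binding protein gene that starts 42 bases downstream of SNHG20 on the same strand, fell from 56.6 ± 1.57 to 51.8 ± 2.83 CPM, and the 2 added together fell from 65.4 to 61.7 CPM (-0.08, adjusted p = 0.0416).

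Neighbouring genes on a chromosome tended to move with one another in this comparison. The log2 fold change of 17 of the 26 tested host genes (65.4%) had the sign of the median over their 20 nearest tested protein-coding genes, and the same was true of 65.3% of all tested genes. With this regional median taken off each gene, 8 host genes were higher and 12 lower in shPRAME, where 35.8% of all genes were higher and 35.4% lower. SNHG6 (log2 fold change 0.02, edgeR adjusted p = 0.567), ZFAS1 (0.08, 0.0633) and SNHG33 (0.19, 0.0877) then no longer passed. GAS5 stood at 0.09, SNHG32 at 0.21, SNHG16 and SNHG17 at 0.23, SNHG11 at 0.35, SNHG5 at -0.10 and SNHG12 at -0.27 and still passed, so these were smaller by over 1.5 times than before. These values depend on the window. With the median of the 10 nearest genes taken off instead, SNHG16 stood at -0.19 and SNHG5 at 0.14, the opposite of their own directions, and SNHG32 at 0.02, and with the 40 nearest they stood at 0.23, -0.17 and 0.23. Of the 20 host genes that passed, 17 kept their direction with 10, 20 and 40 neighbours alike, the exceptions being SNHG16, SNHG5 and DANCR.

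Among the others, some moved away from 0 and some kept most of their change. DANCR turned to -0.61 among neighbours with a median of 0.72, and SNHG8 stood at -0.65 (edgeR adjusted p = 1.95e-09) among neighbours at 0.59. EPB41L4A-AS1 stood at 0.41 and SNHG10 at -0.24, and both now passed. SNHG29 stood at -0.20, SNHG1 at -0.32, SNHG4 at -0.40, SNHG3 at -0.63, SNHG21 at -0.69 and SNHG19 at -1.18. SNHG15 reached 0.72. SNHG14 stood at 1.61 against its 20 nearest genes, at 1.58 against 40 and at 0.81 against 10. Protein-coding genes that overlap a host gene counted among its neighbours, as SNRPN and SNURF did for SNHG14 and MATR3 for SNHG4. How far shared reads enter these medians was not tested.

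**Figure D3:**
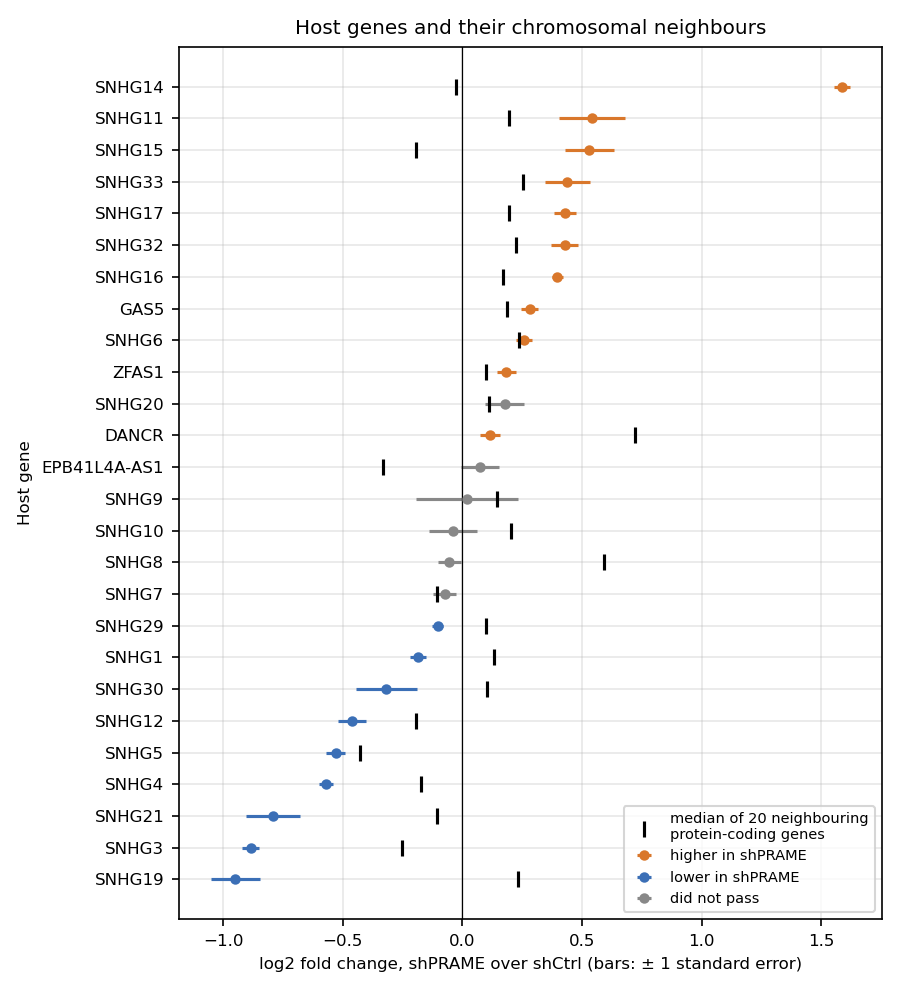
Log2 fold change of each tested host gene (shPRAME over shCtrl, points with bars of ± 1 SE, orange higher, blue lower, grey not passed), with a black tick at the median of its 20 nearest tested protein-coding genes. SNHG14 lies at 1.59 with its tick at -0.03, and at DANCR and SNHG8 the ticks lie to the right of the points, at 0.72 and 0.59.

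Levels were compared between genes per kb of the longest GENCODE 29 transcript, for 25 of the 26 tested genes (SNHG14 had no length on record). The order depends on that choice of length. For SNHG15 the transcript has 3116 bases in a span of 3674, and for EPB41L4A-AS1 2969 bases, more than its RefSeq span of 1976. The spread given is that over libraries only. In shCtrl the order was led by SNHG29 at 184.1 ± 3.89 CPM per kb, SNHG6 at 92.6 ± 2.92 and SNHG5 at 52.1 ± 2.44. DANCR (42.3 ± 1.36), SNHG4 (42.0 ± 0.477) and SNHG16 (39.9 ± 0.0875) followed, of which DANCR and SNHG4 did not differ beyond their spread. SNHG15 (1.73 ± 0.0296) and SNHG11 (1.18 ± 0.247) were at the low end. In shPRAME the 3 highest were SNHG29 at 171.3 ± 0.295, SNHG6 at 110.5 ± 1.37 and SNHG16 at 52.6 ± 0.576 CPM per kb.

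Read against the start sequences, 2 of the 9 tested genes with a pyrimidine run of at least 5 rose (SNHG32 and ZFAS1), 5 fell (SNHG1, SNHG4, SNHG5, SNHG12 and SNHG19) and 2 did not pass (SNHG7 and SNHG8), with a median log2 fold change of -0.18. Of the 14 tested genes with a shorter run or none, 7 rose, 4 fell and 3 did not pass, with a median of 0.15. Over all genes tested, 37.7% were higher and 36.8% lower, and sets of 9 and 14 genes are small. The split depends on the exact annotated start. SNHG3, SNHG16 and SNHG17 are among the 14, although runs of at least 5 pyrimidines lie within a few bases of their starts. The limit of 5 bases was chosen after the sequences and the changes had been seen, and the difference between the 2 sets was not tested.

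A further 8 host genes were too low to test. SNHG25, host of SNORD104, had 22 counts over the shCtrl group and 30 over the shPRAME group, a ratio of 1.37 with an exact 95% counting interval of 0.765 to 2.49. SNHG31 had 1 and 12 counts (ratio 12.1, interval 1.78 to 515.7). ABCA12, a lipid transporter gene that overlaps it on the other strand, rose from 0.0802 ± 0.0843 to 1.64 ± 0.0775 CPM, and BARD1, the partner of BRCA1, which starts beside it, fell from 22.8 ± 2.25 to 20.2 ± 1.54 CPM (edgeR adjusted p = 0.0334). SNHG26 had 1 and 5 counts, SNHG28 had 3 and 1, SNHG27 had 0 and 1, and SNHG18 and SNHG22 had none in either group, where a count of 0 allows up to 0.0303 CPM over the shCtrl group. Beside SNHG22, ACAA2, a thiolase gene of fatty acid oxidation, fell from 21.0 ± 1.02 to 11.98 ± 0.422 CPM (edgeR adjusted p = 2.16e-09), and beside SNHG18 SEMA5A stood at 0.497 ± 0.134 and 0.716 ± 0.186 CPM (adjusted p = 0.111, not passed). MEG8, the maternally expressed host of 41 annotated box C/D snoRNAs on chromosome 14, had 1 and 0 counts, whereas RTL1, which overlaps it on the other strand, rose from 0.290 ± 0.0761 to 6.46 ± 0.813 CPM (edgeR adjusted p = 1.03e-12). The intervals cover counting error only.

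Counts in the 5 lists of related genes below are to be read against the 37.7% of all genes that were higher, the 36.8% that were lower and the median of 0.01. Of 46 protein-coding genes that host snoRNAs, 18 rose, 21 fell and 7 did not pass, with a median log2 fold change of -0.01. NAP1L4, a histone chaperone gene, rose from 84.3 ± 1.63 to 161.8 ± 1.75 CPM and TNPO2, a nuclear import receptor gene, from 93.6 ± 3.83 to 161.3 ± 3.08 CPM. The ribosomal protein gene RPS12 fell from 456.3 ± 11.0003 to 277.6 ± 0.758 CPM.

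Genes for the proteins that bind snoRNAs moved both ways. Of 8 core proteins 4 rose, 2 fell and 2 did not pass (median log2 fold change 0.12). In the box C/D particle NOP56 rose from 230.0 ± 1.78 to 323.3 ± 6.76 CPM while its partner NOP58 fell from 205.0 ± 3.06 to 172.3 ± 3.14 CPM. In the H/ACA particle GAR1 rose from 25.0 ± 0.333 to 37.5 ± 1.22 CPM and NHP2 fell from 85.0 ± 0.607 to 73.3 ± 1.70 CPM. Of 14 assembly and trafficking factors 9 rose, 2 fell and 3 did not pass (median 0.12). The ATPases RUVBL1 and RUVBL2, which load core proteins onto snoRNAs, rose from 114.5 ± 2.76 to 150.9 ± 1.32 CPM and from 103.2 ± 2.71 to 124.3 ± 2.31 CPM. TAF9 fell from 47.9 ± 0.832 to 40.8 ± 0.546 CPM and PHAX, an export adaptor, from 68.4 ± 2.68 to 60.1 ± 0.682 CPM.

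Of 20 genes of nonsense-mediated decay and translation termination, 7 rose, 8 fell and 5 did not pass (median log2 fold change 0.04). RBM8A, a core subunit of the exon junction complex, rose from 181.7 ± 1.24 to 243.5 ± 2.92 CPM and NBAS from 53.2 ± 2.17 to 61.8 ± 1.43 CPM. ETF1, the release factor eRF1, fell from 394.9 ± 7.01 to 275.5 ± 6.26 CPM and PNRC2, a decapping adaptor, from 137.6 ± 2.89 to 98.6 ± 2.32 CPM. Of 12 regulators of 5' TOP mRNAs 5 rose, 4 fell and 3 did not pass (median 0.02). EIF4EBP1, a translation repressor, rose from 143.5 ± 3.95 to 200.5 ± 0.987 CPM and the mTOR subunit gene MLST8 from 23.0 ± 0.523 to 33.2 ± 0.852 CPM, while MTOR fell from 140.0 ± 2.44 to 109.6 ± 1.80 CPM and EIF4EBP2 from 138.3 ± 2.31 to 115.9 ± 1.43 CPM.

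**Figure D4:**
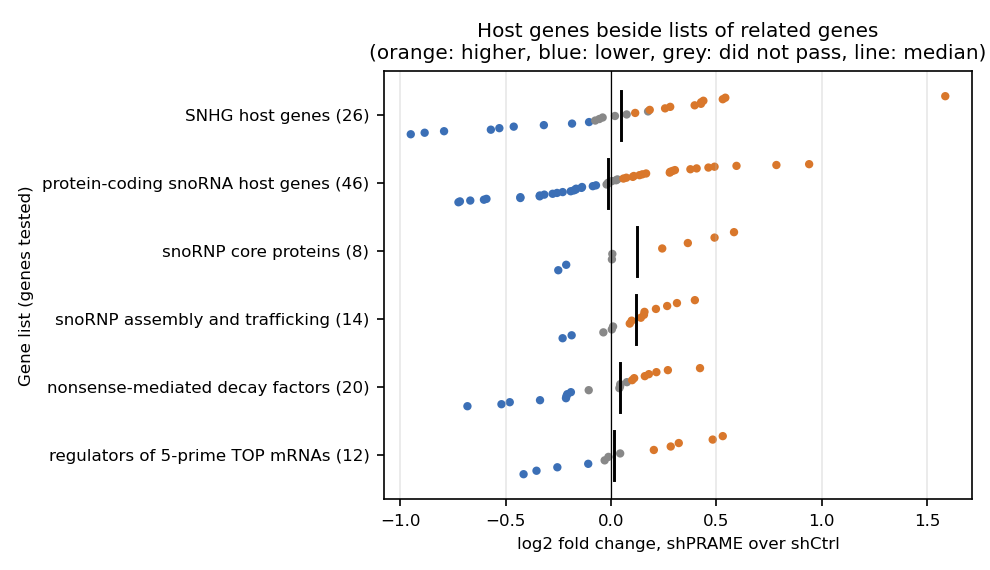
Log2 fold changes (shPRAME over shCtrl) of every tested gene in the set of host genes and in 5 lists of related genes, with 1 point per gene (orange higher, blue lower, grey not passed) and a black line at each median. The medians lie between -0.01 and 0.12, and each list holds genes on both sides of 0.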

How the data were processed

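The deposited files hold whole-number read counts per NCBI gene identifier for 6 libraries, with no normalization, as the file headers state and the values show. Per the submitters' processing notes, fastp, STAR and Salmon and the build GRCh38 (hg38) were used. The sources used here do not state the counting step, its annotation or its use of strand. Repeated identifiers (34 of 40929 rows) were added together, and symbols and coordinates came from the RefSeq table of GRCh38.p14 (40789 of 40895 identifiers matched).

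Counts were tested with edgeR 4.0.16 (R 4.3.3; filterByExpr, TMM, glmQLFit and glmQLFTest, 2-sided, group as the only term), with Benjamini-Hochberg adjustment over 15954 genes. Standard errors were derived from the log2 fold change and the square root of F. The test was checked on simulated counts, with 50 genes changed at each fold. It recovered 26 of 50 at 1.2-fold, 38 at 1.5-fold, 43 at 2-fold and 50 at 4-fold, and called 13 unchanged genes. Failing to pass therefore does not show that a gene was unchanged. A count of 0 allows up to 3 counts, or 0.088 to 0.0973 CPM in 1 library. This floor covers counting error only.

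The members and lists were chosen with earlier results of these data known. Named were members with a mean of at least 5 CPM in full, other members briefly, tested genes that overlap a member given in full or start within 1000 bases of it on the other strand, PRAME, and from each list 2 genes per direction, those of lowest adjusted p among genes averaging 1 CPM or more. Results of some listed genes are left out of the text. SOX10 and the partners of untested members were named after their values were seen. Alternatives were RLE size factors, library totals, no filter or a stricter filter on low counts, DESeq2 1.42.0, limma-voom (limma 3.58.1), a test against a fold of 1.2, the replicate number as a block, each library left out, removal of the regional median and, chosen after seeing the data, same-strand overlapping genes added.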

Additional observations from a re-analysis of the deposited data

How the results depend on the processing

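Over 16 alternatives the 26 tested host genes gave 416 values, of which 383 kept their direction and side of the threshold, 18 lost the call, 7 gained one and 8 reversed. Against a fold of 1.2, 7 host genes were higher and 6 lower, and GAS5, SNHG6, ZFAS1, DANCR, SNHG29, SNHG1 and SNHG30 no longer passed. That test also left 8 protein-coding hosts higher and 10 lower, 0 core proteins lower (also 0 with the regional shift removed), 1 assembly factor higher and 0 lower, 1 decay factor higher and 4 lower, 3 TOP regulators higher and 2 lower, and 2 partner genes lower. With same-strand overlapping genes added, fewer partners remained, 6 higher and 3 lower. The median log2 fold change of host genes was 0.10 with library totals, 0.10 with no filter, -0.039 with the regional shift removed, -0.0082 with same-strand genes added and 0.020 to 0.11 when 1 library was left out; the cause was not tested. The median of host gene minus neighbours was -0.039 with 20 neighbours, -0.0063 with 10 and -0.13 with 40. Reversed were DANCR (-0.61), SNHG9 (-0.12) and SNHG7 (0.033) with the regional shift removed, SNHG10 with library totals (0.011), SNHG20 with SEC14L1 added (-0.083), and SNHG9 without shCtrl replicate 1, shCtrl replicate 3 or shPRAME replicate 3 (-0.073 to 0.14 over the 6 libraries left out in turn); the cause was not tested. SNHG20 passed with library totals (edgeR adjusted p = 0.0182), without shCtrl replicate 2 (0.0385) and without shPRAME replicate 3 (0.0331).

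Replicate numbers did not pair the libraries (correlations of deviations -0.0589, -0.119 and -0.0999 for equal numbers). With the replicate number as a block, 11 host genes were higher and 9 lower. The 8 untested genes had at most 14 counts in a library.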
